A study of Mus musculus with 2 samples.

Results

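The glycolysis genes described here are 10 listed symbols, Slc2a1, Hk1, Hk2, Pfkp, Aldoa, Gapdh, Pgk1, Eno1, Pkm and Ldha, found by name among the 32285 genes of the count tables. All 10 were found. They were listed as genes of one pathway, with earlier results of these data known. Their levels were read in marker-defined cell classes of post-ischemic mouse kidney, in 1 Control and 1 JPI-289 library. Both kidneys came from male C57BL/6 mice aged 9 weeks that underwent bilateral ischemia-reperfusion injury (IRI), and both were collected 24 h after surgery. The JPI-289 mouse received 100 mg/kg of JPI-289, an inhibitor of poly(ADP-ribose) polymerase, and the Control mouse received saline, in each case into the peritoneal cavity just before blood flow was restored. No uninjured kidney was analysed here. With 1 library per condition, a difference between mice and a difference between treatments cannot be told apart, so values are compared without a test.

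Glycolysis splits glucose into pyruvate and yields ATP without oxygen. Slc2a1 carries glucose into the cell, the hexokinases Hk1 and Hk2 trap it as glucose 6-phosphate, and phosphofructokinase, here Pfkp, commits it to the pathway. Aldoa, Gapdh, Pgk1 and Eno1 carry the carbon to phosphoenolpyruvate, Pkm makes pyruvate, and Ldha converts pyruvate to lactate. The healthy proximal tubule (PT) burns mainly fatty acids and makes glucose, and it uses its own isozymes, among them Slc2a2 and Pklr. Distal nephron segments, endothelial cells (ECs) and leukocytes rely more on glycolysis. Several of the 10 genes are classical targets of hypoxia-inducible factor 1 (HIF-1).

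The Control library held 38328760 unique molecular identifiers (UMIs) and the JPI-289 library 35548396, and 3752 and 5041 cells were kept (median UMIs 2054 and 1866). The libraries shared 30 cell barcodes. Cells were grouped into 12 classes by marker genes, and a class is written PT-like, EC-like and so on because its name rests on rebuilt clusters. The PT-like class held 1786 Control and 1659 JPI-289 cells, and the EC-like class 498 and 567. All 14 PT markers and all 9 EC markers were detected in their class in both libraries. A level is given in CPM, the UMIs of a gene per 1000000 UMIs of its class. A UMI counts 1 end of a molecule, so levels were not divided by gene length. Levels carry exact Poisson intervals, ratios and shares exact binomial intervals, all at 95%, and these cover counting error only, not the spread between mice. Free RNA, estimated from barcodes under 100 UMIs, made up 6.74% of PT-like UMIs in the Control and 5.11% with JPI-289, and 18.1% and 22.6% of EC-like UMIs.

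Across cell classes, the proximal tubule stood apart by which glycolysis genes it used. Pkm, the pyruvate kinase of most tissues, measured 24.8 CPM in Control PT-like cells (21.5 to 28.4) and 42.2 in JPI-289 PT-like cells (37.6 to 47.1). In the other 8 nucleated classes with at least 40 cells per library, Pkm lay between 679.9 in stroma-like and 1622 in macrophage-like cells of the Control, and between 823.5 in stroma-like and 2097 in DCT/CNT-like cells (distal convoluted and connecting tubule) of the JPI-289 library. Hk1, the housekeeping hexokinase, measured 3.20 and 2.86 in PT-like cells, against 34.2 to 243.4 in those 8 classes. No interval of a PT-like level of Pkm or Hk1 overlapped an interval of the other 8 classes. Slc2a1 and Pfkp were also lowest in PT-like cells in both libraries among these 9 classes. In the Control the PT-like Pfkp interval, 10.6 to 15.7, overlapped that of stroma-like cells, 9.12 to 26.9. Free RNA alone would give Hk1 a PT-like level of 3.21 in the Control and 1.93 with JPI-289, so the measured Hk1 level was close to that background.

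The genes of the lower pathway did not share this gap. Gapdh was the most abundant member in all 9 classes of both libraries. Its level was highest in PT-like cells in the Control, 5299 CPM (5250 to 5350), and in EC-like cells with JPI-289, 6516 (6395 to 6638). Ldha, Pgk1 and Eno1 measured 713.6, 350.9 and 489.6 CPM in Control PT-like cells, within the range of the other classes. Aldoa was highest in DCT/CNT-like cells, 1961 CPM, and in intercalated-like collecting duct cells, 1941, in the Control, whose intervals overlapped. Hk2, the inducible hexokinase, was sparse everywhere. Its highest Control level was 23.4 CPM in macrophage-like cells, from 28 UMIs, and it reached 20 UMIs over both libraries only in macrophage-like cells (28 and 18 UMIs) and principal-like collecting duct cells (9 and 12). The plot of levels by class shows both patterns.

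**Figure D1:**
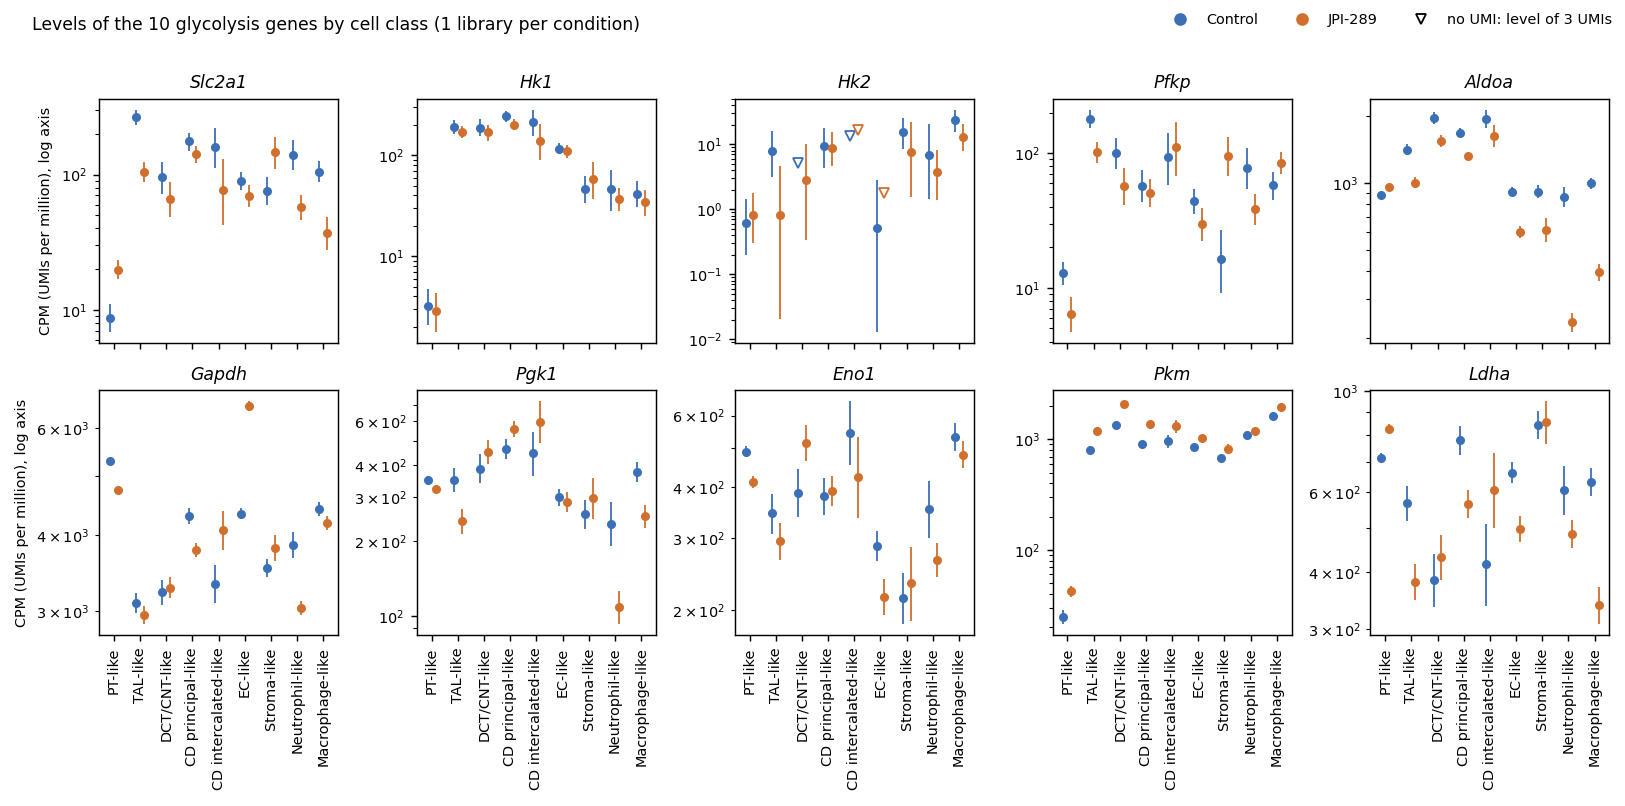
Level of each of the 10 glycolysis genes in 9 cell classes, in CPM on log axes that differ between panels. Points are single libraries (Control blue, JPI-289 orange), bars are exact Poisson intervals, and open triangles mark classes with no UMI, drawn at the level of 3 UMIs. Hk1 and Pkm are far lower in PT-like cells than in any other class shown, while Gapdh is not.

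In PT-like cells the 10 genes as a set differed little between the libraries. Their summed level was 7784 CPM in the Control (7723 to 7845) and 7347 with JPI-289 (7286 to 7410). The median log2 ratio, JPI-289 over Control, was 0.00 over the 10, with the second lowest and second highest gene at -0.25 and 0.77. Over the 9 members with at least 20 UMIs the median was -0.13. Over all 11316 genes with at least 20 UMIs in the class it was -0.19. Of the 9 members with at least 20 UMIs, 4 were higher in the JPI-289 library, against 42.0% of all measured genes. At the 2-fold line, 1 member was higher, Slc2a1, where 9.08% of all measured genes lay, and 1 was lower, Pfkp, where 23.5% lay. The member below 20 UMIs, Hk2, had 5 and 6 UMIs.

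At the entry of the pathway the glucose transporter Slc2a1 was higher in JPI-289 PT-like cells. It had 71 UMIs or 8.75 CPM in the Control (6.83 to 11.0) and 146 UMIs or 19.9 CPM with JPI-289 (16.8 to 23.3), a log2 ratio of 1.18 (0.76 to 1.61). The intervals of the levels did not overlap. Free RNA would give 3.21 and 2.68 CPM. Phosphofructokinase Pfkp went the other way, from 105 to 47 UMIs and from 12.9 to 6.39 CPM, a log2 ratio of -1.01 (-1.55 to -0.51). It sat at the 2-fold line, and no member lay beyond that line on the lower side in 8 of the 13 alternative settings. Hk1 had 26 and 21 UMIs, and its log2 ratio of -0.16 had an interval that held 0 (-1.07 to 0.72).

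The abundant enzymes of the middle steps differed by no more than 0.25 on the log2 scale in PT-like cells. Aldoa measured 880 CPM in the Control and 961.9 with JPI-289, a log2 ratio of 0.13 (0.08 to 0.18). Gapdh was lower at 4754 against 5299 CPM, a log2 ratio of -0.16 (-0.18 to -0.14), and Pgk1 and Eno1 were lower, at -0.13 and -0.25 on the same scale. These intervals excluded 0, but measured against the median of all genes Gapdh and Pgk1 changed sign, to 0.03 and 0.06. At the end of the pathway Pkm had 201 UMIs in the Control and 310 with JPI-289, a log2 ratio of 0.77 (0.51 to 1.03). Free RNA would give Pkm 15.0 and 19.9 CPM, 60.5% and 47.3% of its PT-like levels. Ldha was higher at 825.9 against 713.6 CPM, a log2 ratio of 0.21 (0.16 to 0.26).

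The partner isozymes Pklr and Slc2a2 differed more between the libraries than Pkm and Slc2a1 did in PT-like cells. Pklr, the liver and kidney pyruvate kinase, had 349 and 57 UMIs, a log2 ratio of -2.46, and the share of Pkm in pyruvate kinase UMIs was 36.5% (32.5 to 40.7) and 84.5% (80.4 to 88.0). Slc2a2, the basolateral glucose transporter through which PT cells export glucose, had 837 UMIs in the Control and 25 with JPI-289, a log2 ratio of -4.90. Slc2a1 was 7.77% of the UMIs of 4 glucose transporters in the Control (6.12 to 9.70) and 83.4% with JPI-289 (77.1 to 88.6). For both of these shares the intervals of the libraries were far apart. The intervals do not cover the choice of processing. Over the alternatives not chosen after seeing the data, the Pkm share ran from 19.5% to 51.7% in the Control. With JPI-289 it ran from 74.1% to 87.1%. The Slc2a1 share ran from 5.28% to 9.55% and from 76.3% to 85.2%. The share of Ldha against Ldhb differed less, 45.4% (44.5 to 46.2) against 52.4% (51.4 to 53.3).

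**Figure D2:**
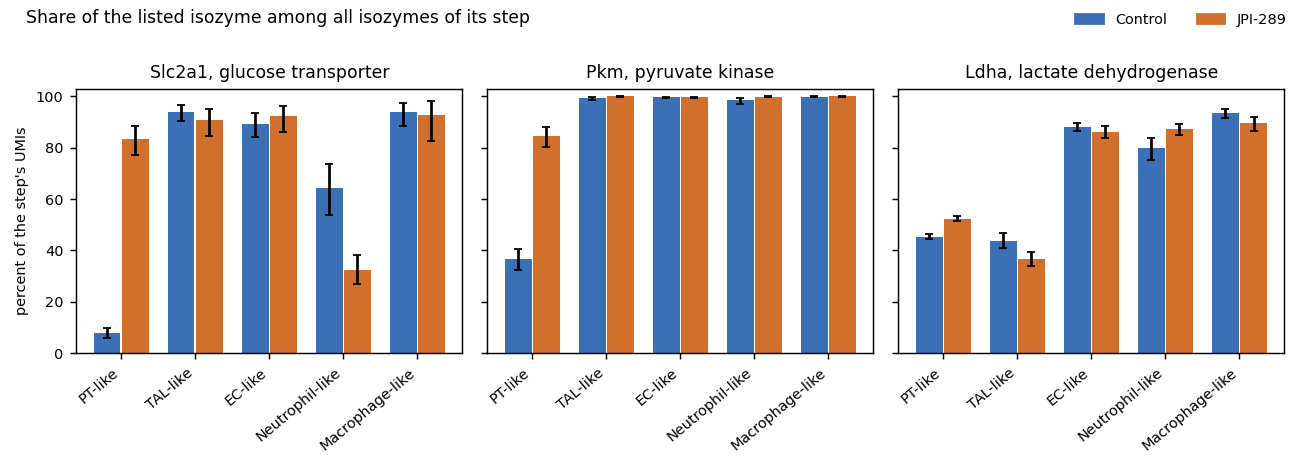
Share of Slc2a1, Pkm and Ldha among the UMIs of all isozymes of their step, in percent, in 5 cell classes. Bars are single libraries (Control blue, JPI-289 orange) and error bars are exact binomial intervals. In PT-like cells the Slc2a1 and Pkm shares are 7.77% and 36.5% in the Control and 83.4% and 84.5% with JPI-289.

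In the other 8 nucleated classes, Pkm and Slc2a1 made up most of the UMIs of their steps in the Control, while Ldha and Pfkp did so in some classes only. Pkm was 99.3% of pyruvate kinase UMIs in TAL-like cells (thick ascending limb) and 99.6% in EC-like cells. Slc2a1 was 94.0% and 89.4% of the transporter UMIs there. Ldha was 88.1% of its step in EC-like cells, 43.7% in TAL-like cells and 16.9% in DCT/CNT-like cells, where Ldhb was the more abundant. Pfkp was 73.1% of phosphofructokinase UMIs in TAL-like cells, 45.1% in EC-like cells and 27.3% in stroma-like cells. Neutrophil-like cells also held Slc2a3, the high-affinity glucose transporter of leukocytes and neurons. Slc2a3 made up 29.5% of their transporter UMIs in the Control (20.6 to 39.7) and 67.7% with JPI-289 (62.0 to 73.1), and Slc2a1 64.2% and 32.3%. The myeloid hexokinase Hk3 was 51.0% of hexokinase UMIs in Control neutrophil-like cells and 38.8% in macrophage-like cells, and 31.6% and 15.6% with JPI-289.

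The promoters of the 2 measured members with the highest ratios in PT-like cells, Slc2a1 and Pkm, are shown with those of the isozymes Slc2a2 and Pklr, which had far fewer UMIs with JPI-289. The core letters of the hypoxia response element, ACGTG or GCGTG, were searched on both strands in the 250 bases before each start site listed by RefSeq (GRCm38.p6), counting overlapping matches separately, and matches are in capitals. The windows lie at chr4:119108495-119108744, chr3:28697653-28697902, chr9:59656977-59657226 (the second of 2 listed starts, the first having no match) and chr3:89135892-89136141 (the first of 2 listed starts), all on the + strand.
Slc2a1: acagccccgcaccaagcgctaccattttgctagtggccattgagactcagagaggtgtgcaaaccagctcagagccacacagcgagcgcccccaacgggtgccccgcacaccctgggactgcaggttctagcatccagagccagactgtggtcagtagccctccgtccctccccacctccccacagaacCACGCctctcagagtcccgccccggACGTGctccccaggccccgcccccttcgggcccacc
Slc2a2: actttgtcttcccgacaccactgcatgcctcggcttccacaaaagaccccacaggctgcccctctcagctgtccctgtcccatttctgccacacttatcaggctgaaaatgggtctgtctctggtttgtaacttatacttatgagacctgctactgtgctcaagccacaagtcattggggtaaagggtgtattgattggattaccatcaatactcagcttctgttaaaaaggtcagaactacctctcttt
Pkm: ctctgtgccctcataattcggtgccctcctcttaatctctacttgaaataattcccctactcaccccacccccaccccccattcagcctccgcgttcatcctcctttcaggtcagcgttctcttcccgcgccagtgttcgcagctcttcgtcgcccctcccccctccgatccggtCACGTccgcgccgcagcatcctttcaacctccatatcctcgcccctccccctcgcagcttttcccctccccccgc
Pklr: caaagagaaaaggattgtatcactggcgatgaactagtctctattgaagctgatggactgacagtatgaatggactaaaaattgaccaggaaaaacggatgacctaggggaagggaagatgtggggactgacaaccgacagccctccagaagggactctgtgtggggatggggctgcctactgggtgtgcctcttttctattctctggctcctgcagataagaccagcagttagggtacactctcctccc
Slc2a1 held 2 matches, the nearest beginning 36 bases before the start, Pkm held 1, at 75 bases, and neither Slc2a2 nor Pklr held any. Other isozymes did hold matches, with 1 of 1 window each for Hk3, Pfkl and Ldhb, 3 of 4 for Pfkm and 2 of 2 for Aldoc, and Pfkp, which was lower in JPI-289 PT-like cells, held 3 matches. Over the 10 members, 14 of 17 windows and every gene in at least 1 window held a match, and Ldha held the most, 5 in 1 window. Of all 32851 windows, 38.6% held a match, 16.6% ACGTG and 28.2% GCGTG, and 41.5% of genes did in at least 1 window. The member windows were richer in G and C, with a median of 62.8% against 52.4%. A match is a run of letters and was not tested for binding.

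The PT-like class was made of clusters that were mostly of 1 library. The libraries were clustered together without batch correction, whereas the paper corrected for batch with harmony. How far this split depends on that choice was not tested. Control cells fell in cluster 2 (801 cells), cluster 3 (715) and cluster 14 (217), and JPI-289 cells in cluster 0 (847), cluster 8 (427) and cluster 9 (379). The 10 genes and the 30 other listed glycolysis genes, among them Slc2a2 and Pklr, were kept out of the clustering. The summed level of the 10 ranged from 1418 CPM in cluster 14, whose leading genes were nuclear RNAs and PT transporters, to 12964 in cluster 2. Gapdh ranged from 710.1 to 9357 CPM over these clusters. The spread between clusters of 1 library was therefore wider than the difference between the libraries. A cluster of mostly JPI-289 cells that was led by nuclear RNAs too, cluster 11, stayed unnamed and out of the class, with a summed level of 1203. Without cluster 14 the Control level was 8441, the Slc2a1 log2 ratio was 1.57, that of Pkm 0.87 and that of Aldoa 0.01.

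Only clusters 0 and 9 held at least 20 PT-like cells of each library, 53 Control and 1226 JPI-289 cells in all. In cluster 0, Pkm measured 348.1 CPM in 24 Control cells and 75.6 in 847 JPI-289 cells, and in cluster 9 it measured 21.1 in 29 Control cells and 38.9 in 379 JPI-289 cells. The Control values of Pkm rest on 10 UMIs in cluster 0 and 1 UMI in cluster 9. Over both clusters the Pkm log2 ratio was -1.56 (-2.37 to -0.48) and that of Aldoa, from 116 and 5105 UMIs, -0.41 (-0.67 to -0.13), both opposite in sign to the whole class. Ldha was at -0.01 with an interval that held 0 (-0.33 to 0.36). Slc2a1 had no UMI among the 76079 of the Control cells of these clusters, which allows a level of up to 39.4 CPM, and measured 8.10 and 25.7 CPM in the JPI-289 cells. Pfkp had 1 UMI in the Control and 30 with JPI-289, too few to give a direction. The share of Pkm in pyruvate kinase UMIs was 11 of 14 in these Control cells, or 78.6% (49.2 to 95.3), and 227 of 267 with JPI-289, or 85.0% (80.2 to 89.1), and a difference was not detectable at this depth.

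**Figure D3:**
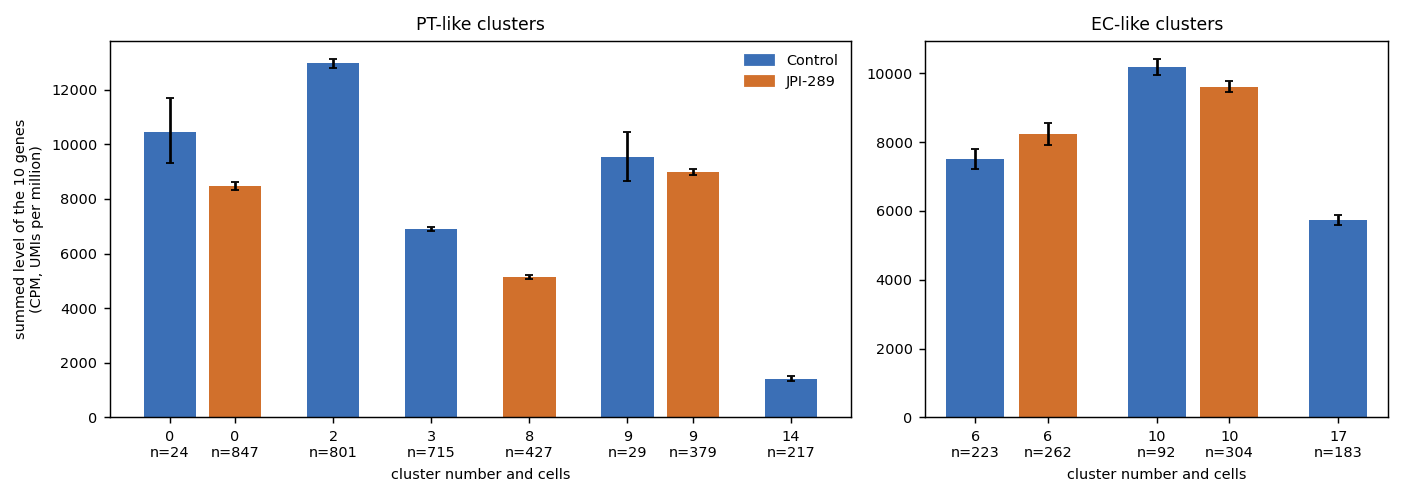
Summed level of the 10 glycolysis genes in CPM for each PT-like and EC-like cluster with at least 20 cells of a library. Bars are single libraries (Control blue, JPI-289 orange), error bars are exact Poisson intervals, and the number of cells stands under each bar. Levels run from 1418 in cluster 14 to 12964 in cluster 2, both of the Control, and most PT-like clusters hold 1 library.

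In EC-like cells the set split, with Gapdh and Pkm higher in the JPI-289 library and the other measured members lower. The median log2 ratio was -0.39 over the 10 genes, with the second lowest and second highest gene at -0.60 and 0.28. Over the 9 measured members the median was -0.37, beside -0.17 over 9715 measured genes. Of the 9 members with at least 20 UMIs, 2 were higher, against 41.2% of all measured genes. None crossed the 2-fold line in either direction, beyond which lay 5.27% (higher) and 18.5% (lower) of all measured genes. Hk2 had 1 UMI in the Control and none in the JPI-289 library.

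Gapdh measured 4335 CPM in Control EC-like cells (4244 to 4428) and 6516 with JPI-289 (6395 to 6638), a log2 ratio of 0.59 (0.55 to 0.63). This lifted the summed level of the 10 genes from 7593 to 9349 CPM. Pkm was higher at 1024 against 846.0, a log2 ratio of 0.28 (0.18 to 0.37). Aldoa was lower at 601.4 against 911.7 CPM, a log2 ratio of -0.60 (-0.71 to -0.49). Eno1, Ldha, Slc2a1 and Pfkp were lower, at -0.42, -0.41, -0.37 and -0.57 on the log2 scale, each with an interval that excluded 0. Pgk1, -0.06 (-0.24 to 0.12), and Hk1, -0.09 (-0.38 to 0.19), had intervals that held 0 over the whole class.

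Cluster 17, with 183 Control cells and 1 JPI-289 cell, weighed on the EC-like values, since its Gapdh level was 3273 CPM. In cluster 6 Gapdh measured 4425 in 223 Control cells and 5624 in 262 JPI-289 cells, and in cluster 10 it measured 5743 in 92 and 6724 in 304 cells. Gapdh was higher in the JPI-289 cells of both, and over the pair its log2 ratio was 0.29. Aldoa was lower in both, at 649.3 against 1029 CPM in cluster 6 and 591.5 against 1083 in cluster 10. Pkm was higher in cluster 6, 859.4 against 600, and lower in cluster 10, 1063 against 1194. Over the pair its log2 ratio was 0.03 (-0.08 to 0.14). Pgk1 and Hk1, whose intervals held 0 over the whole class, were lower over the pair. Their log2 ratios there were -0.58 (-0.77 to -0.39) and -0.36 (-0.68 to -0.03). The median of the 10 genes over these clusters was -0.73, with Hk2 included though it had no UMI there. A median of all measured genes over these clusters was not taken.

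In the distal nephron classes Pkm was higher in the JPI-289 library. In TAL-like cells 1 of 9 measured members was higher, Pkm, where 47.0% of all measured genes were higher. Slc2a1 was the member beyond the 2-fold line on the lower side, with 236 and 127 UMIs and 264.8 and 104.9 CPM, a log2 ratio of -1.33 (-1.66 to -1.02), and 11.0% of all measured genes lay there. None lay beyond it on the higher side, where 8.15% of all measured genes did. Pfkp, Ldha, Pgk1 and Aldoa followed at -0.82, -0.57, -0.55 and -0.49, and Pkm was higher by 0.57 (0.44 to 0.70), at 1196 against 804.5 CPM. The median of the 10 genes was -0.52 in TAL-like cells. Over the 9 measured members it was -0.49, beside -0.05 over all measured genes.

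In DCT/CNT-like cells 5 of 9 measured members were higher, against 49.4% of all measured genes, and in principal-like cells 3 of 10, against 47.1%. No member lay 2-fold higher or lower in either class, where 7.82% and 9.56% of all measured genes did in DCT/CNT-like and 8.87% and 13.9% in principal-like cells. Pkm again had the highest ratio of the measured members, with log2 ratios of 0.63 (0.50 to 0.75) and 0.59 (0.47 to 0.71). Ldha was lower in principal-like cells, -0.47 (-0.61 to -0.32), and Pfkp in DCT/CNT-like cells, -0.81 (-1.43 to -0.21). The principal-like class differed in depth, with 79 Control cells of median 9166 UMIs and 383 JPI-289 cells of median 1541. Free RNA made up 8.68% and 16.6% of its UMIs. In intercalated-like cells, 46 and 60 in number, Slc2a1 had 36 and 14 UMIs, -1.01 (-2.05 to -0.12), and Pkm was higher by 0.45 (0.18 to 0.72).

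Of these 9 classes, the leukocyte classes held most of the members that were at least 2-fold lower. In neutrophil-like cells 1 of 9 measured members was higher, Pkm at 0.13 (-0.02 to 0.28), against 55.6% of all measured genes, and 4 were at least 2-fold lower, against 10.5%. None was at least 2-fold higher, against 11.5%. The 4 were Aldoa, Slc2a1, Pgk1 and Pfkp. Aldoa had 377 UMIs in 196 Control cells and 380 in 652 JPI-289 cells, or 866.7 and 236.1 CPM, a log2 ratio of -1.88 (-2.09 to -1.67). Slc2a1 measured 140.2 and 57.2 CPM, Pgk1 234.5 and 108.7, and Pfkp 78.2 and 38.5. None of these intervals overlapped between the libraries.

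In macrophage-like cells, of 10 members 2 were higher, Pfkp at 0.56 and Pkm at 0.29, against 48.4% of all measured genes. Aldoa, 997.8 and 395.9 CPM, and Slc2a1, 105.3 and 37.1, were at least 2-fold lower, with log2 ratios of -1.33 (-1.48 to -1.19) and -1.50. On the lower side lay 15.4% of all measured genes and on the higher side, where no member was, 8.91%. Ldha was lower at 338.4 against 632.6 CPM, a log2 ratio of -0.90 (-1.07 to -0.73).

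Stroma-like cells, 197 and 110 in number, were the only class other than PT-like cells among the 9 in which Slc2a1 was higher in the JPI-289 library, with 76.0 and 145.6 CPM and a log2 ratio of 0.94 (0.41 to 1.46). Pfkp had 15 and 38 UMIs there, or 16.3 and 95.4 CPM, a log2 ratio of 2.52 (1.65 to 3.52). It was the member at least 2-fold higher, where 11.4% of all measured genes lay, and none was at least 2-fold lower, where 13.8% did. Of 9 measured members 8 were higher, against 50.5% of all measured genes, and Aldoa was lower, -0.57 (-0.78 to -0.36).

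**Figure D4:**
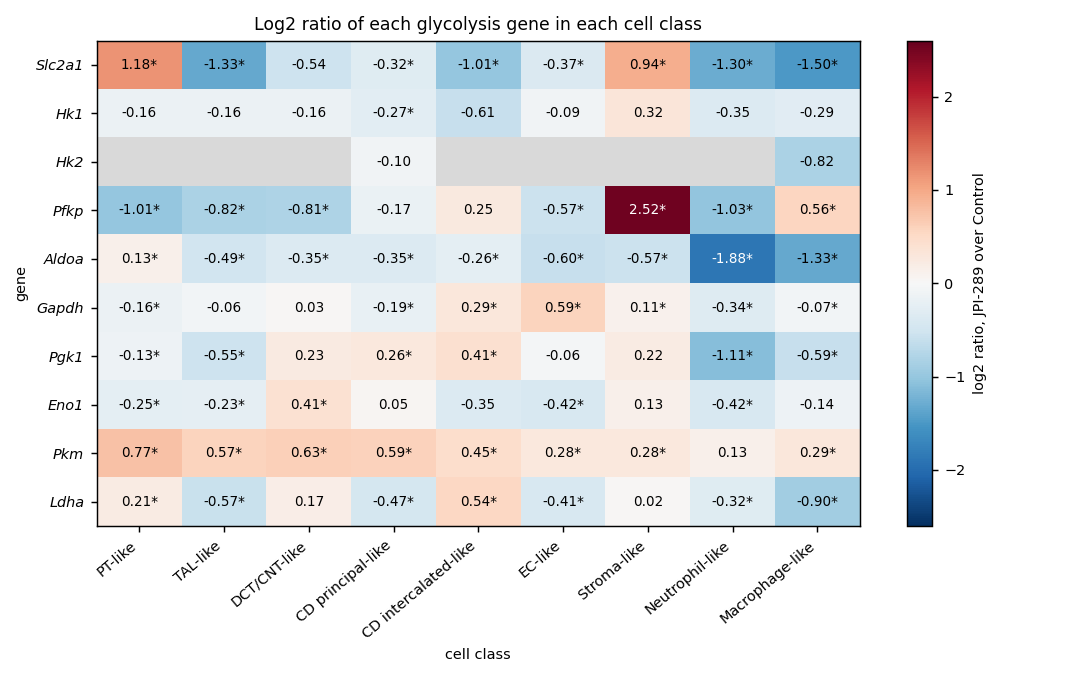
Log2 ratio, JPI-289 over Control, of each of the 10 glycolysis genes (vertical) in 9 cell classes (horizontal), from 1 library per condition. Red is higher and blue lower in the JPI-289 library, gray marks fewer than 20 UMIs over both libraries, and an asterisk marks an exact binomial interval that excludes 0. Pkm is above 0 in every class shown, Aldoa is below 0 in every class but PT-like, and Slc2a1 is above 0 in PT-like and stroma-like cells.

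Read by gene, Pkm, Aldoa and Slc2a1 are described here over the 9 classes. How many of all measured genes keep a sign over these classes was not counted. Hk1 was lower in the JPI-289 library in every class but stroma-like, with an interval below 0 only in principal-like cells. Pkm was higher in the JPI-289 library in all 9, with an interval above 0 in 8. In stroma-like cells, though, the ratio was -0.03 with the first calling step alone and -0.02 at the lower clustering resolution. Between cells of shared clusters it was below 0 in PT-like cells, from 11 Control UMIs. In EC-like cells of shared clusters it was 0.03 with an interval that held 0 (-0.08 to 0.14). Over all barcodes Pkm had 12424 and 17733 UMIs, or 324.1 and 498.8 CPM, a log2 ratio of 0.62, and in the free RNA it was higher as well, at 222.2 and 389.8 CPM. Aldoa was lower in 8 of 9, with every interval below 0, and over all barcodes it was lower, at -0.28. Slc2a1 was lower in 7 of 9 and over all barcodes measured 45.2 and 43.9 CPM, a log2 ratio of -0.04 whose interval held 0 (-0.14 to 0.06).

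Among other genes of glycolysis, of 30 listed genes 20 had at least 20 UMIs in PT-like cells, 3 of them higher and 9 at least 2-fold lower, with a median log2 ratio of -0.83. Over all measured genes of the class 42.0% were higher, 23.5% were at least 2-fold lower, and the median was -0.19. Beside Slc2a2 and Pklr, the fructose transporter Slc2a5 had 244 and 12 UMIs, -4.15 (-5.18 to -3.37). Tpi1, which interconverts the trioses of the pathway, measured 653.8 and 376.9 CPM, -0.79, while Pgam1 and Gpi1, enzymes of other steps, were at 0.17 and -0.14. The 7 listed gluconeogenesis genes, which run the same carbon backward, had a median of -1.48 and none was higher. G6pc, which releases free glucose, had 1845 and 23 UMIs in PT-like cells, -6.15 (-6.85 to -5.59), and Pck1 7116 and 1043 CPM, -2.77.

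At the fate of pyruvate, 16 of 19 listed genes were measured in PT-like cells and 5 were higher, against 42.0% of all measured genes. Pdk4, the kinase that shuts off pyruvate dehydrogenase, was the highest of all listed genes there, with 1225 and 8398 UMIs or 150.9 and 1142 CPM, a log2 ratio of 2.92 (2.83 to 3.01). It was also highest in EC-like cells, with 27 and 294 UMIs, 3.62 (3.07 to 4.27). Of 19 measured HIF-1 target genes outside the 10 members, 10 were higher in PT-like cells, 2 of them at least 2-fold, and 6 were at least 2-fold lower, with a median of 0.10. Beside them stand 42.0%, 9.08% and 23.5% of all measured genes and a median of -0.19. The 2 were the lipid droplet gene Hilpda, 2.72 (2.29 to 3.21), and the heme oxygenase Hmox1, 1.22 (1.12 to 1.32). In EC-like cells 5 of 17 measured HIF-1 targets were higher, against 41.2% of all measured genes. Ddit4, an inhibitor of mTOR signaling, was the highest of them with 386 and 1507 UMIs, 2.16. Pfkfb3, which makes the activator of phosphofructokinase, had 51 and 138 UMIs in EC-like cells, 1.63 (1.16 to 2.13), while Pfkl, the liver type phosphofructokinase, had 92 and 24, -1.72.

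Among themselves, the members followed each other unevenly over 20 profiles, 10 classes in 2 libraries. The Pearson correlation of a member with the summed level of the other 9 was 0.94 for Pgk1, 0.88 for Eno1, 0.82 for Gapdh and 0.81 for Ldha, and 0.51 for Pkm and 0.02 for Hk2. The profiles of 1 library share its depth and free RNA. The genes outside the set whose pattern was most like the summed level were Tcf25, Trir, Nabp2, Tex261 and Nras, with correlations of 0.95 to 0.96 among 7832 genes. Red blood cell profiles, with a summed level of 1248 and 1222, were among the 20 and set the low end for both kinds of correlation. The correlations between members were not computed without these profiles, so they may rest partly on them. Without the red blood cell profiles the most alike outside genes were F11r, Ormdl2, Fundc1, Vps50 and Guf1, at 0.71 to 0.77.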

How the data were processed

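UMI counts were measured in 1 Control and 1 JPI-289 kidney library made with a 10x 5′ kit. The authors deposited raw counts per gene and barcode, made with Cell Ranger 5.0.1 against mm10, with barcodes not filtered to cells. Cells were called in 2 steps, a UMI line from the 3000 largest barcodes and then, from 500 UMIs, a Monte Carlo test against the free RNA profile (false discovery rate 0.01, 10000 simulations). Cells over 50% mitochondrial UMIs were left out. Cells of both libraries were clustered together with scanpy 1.11.5 (2000 variable genes, 30 components, Leiden resolution 1), with no batch correction. The 10 members and the 30 other listed glycolysis genes were left out of the clustering. Clusters were named from marker lists by a rule set after the clusters had been seen. Scrublet marked 2 of 8793 cells as doublets, so that caller had not worked and its 5% highest scores served as an alternative. UMIs were summed per class, and 0.5 UMIs were added before log2 ratios were taken. The code was tested on simulated data. The members and gene lists were chosen with earlier results of these data known. Named genes were the members, the isozymes of their steps, the 3 highest and 3 lowest list genes with at least 100 UMIs in PT-like and in EC-like cells, and the 5 genes most alike in pattern. Some genes that this rule names are not reported here. Pck1, Tpi1, Pgam1 and Gpi1 were named after their values were seen. A second Aldoa feature, with 10 and 6 UMIs, was left out, and reads of Eno1b, a near copy of Eno1 with 380 and 268 UMIs, may be split with Eno1. The promoter windows of the 10 members were all found by symbol. Alternatives covered cell calling, filters, clustering, doublets, scaling, weighting, free RNA and the added count.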

Additional observations from a re-analysis of the deposited data

Results flagged for a closer look

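In 4 members the log2 ratio, JPI-289 over Control, lay on opposite sides of 0 in PT-like and EC-like cells, with both counting intervals away from 0. The share of all measured genes that do so was not counted, and counting intervals are narrow for abundant genes. The difference between the classes was not tested, because each condition has 1 library. Slc2a1 was 1.18 in PT-like and -0.37 in EC-like cells. Aldoa was 0.13 and -0.60, and Ldha was 0.21 and -0.41. Gapdh was -0.16 in PT-like and 0.59 in EC-like cells. Between cells of clusters that both libraries filled, the PT-like value of Aldoa was -0.41, the same side of 0 as in EC-like cells, and that of Ldha was -0.01 with an interval that held 0. The sign of Slc2a1 in EC-like cells held in all alternatives run. In PT-like cells it held too, but the shared clusters had no Slc2a1 UMI in the Control and cannot show a direction. Gapdh in PT-like cells was 0.03 when centred on all genes and below 0 in the other alternatives run.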

How the results depend on the processing

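The median of the 10 genes ran from -0.12 to 0.19 in PT-like and from -0.44 to -0.22 in EC-like cells over the alternatives other than those chosen after seeing the data. Chosen after seeing the data, the clusters with at least 20 cells of each library gave medians of -0.28 and -0.73. These medians include Hk2, with 0 and 1 UMIs in PT-like and none in EC-like cells, and in PT-like cells Hk1, with 2 Control UMIs. The PT-like ratios in these clusters were -0.41 for Aldoa, -1.56 for Pkm and -0.0058 for Ldha. There 2 members were at least 2-fold lower, Pkm from 11 and Pfkp from 1 Control UMI. Centred on all genes, Gapdh was 0.033 and Pgk1 0.064 in PT-like cells. The count at least 2-fold higher there was 2 with the first calling step and with free RNA subtracted, and 0 with equal weight of cells. The count at least 2-fold lower was 0 with at least 1000 UMIs, resolution 0.5, libraries clustered alone, without the 5% highest doublet scores, centring, equal weight, 1 CPM added, and without cluster 14. Shares and medians of all measured genes were taken for the main setting only, so these counts and medians have none beside them. In the main setting 9.08% of all measured genes were at least 2-fold higher in PT-like cells and 23.5% at least 2-fold lower. The cause of these moves was not tested. No paired analysis was possible because each condition has 1 library. Depth limits the sparse members: Hk2 in all classes, and Hk1 in PT-like cells, whose ratio ran from -0.75 to 3.98.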
